A study of Mus musculus with 12 samples.

Results

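The microtubule genes of the mouse oocyte were followed here across loss of the mitofusins. They are the kinesin, cytoplasmic dynein, dynactin and tubulin genes, taken as every symbol of the count table that begins with Kif and a digit, Dync, Dctn and a digit, Tuba, Tubb or Tubg, with pseudogene names left out. The rule found 63 of 11385 genes. They are 30 kinesins, 7 dyneins, 6 dynactin subunits, 7 alpha-tubulins, 6 beta-tubulins, 2 gamma-tubulins and 5 gamma-tubulin complex proteins. Mitofusin 1 and mitofusin 2, encoded by Mfn1 and Mfn2, sit in the mitochondrial outer membrane and drive the fusion of mitochondria. Total RNA was sequenced from 12 pools of 50 denuded germinal-vesicle oocytes, which are held in meiotic prophase. The groups were Mfn1-/- (loss of Mfn1 alone), Mfn2-/- (loss of Mfn2 alone), Mfn1&2-/- (loss of both) and WT, with 3 pools each. All pools came from unprimed C57BL/6J mice aged 21 to 23 days. The labels name neither a Cre driver nor the deleted exons, and nothing in them ties a pool to its own animal. P-values here thus measure pool-to-pool spread, which may be technical.

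Microtubules are polymers of alpha- and beta-tubulin that are started from ring complexes of gamma-tubulin. Kinesins mostly move cargo or chromosomes towards the plus ends, or shorten those ends, while cytoplasmic dynein with its activator dynactin moves towards the minus ends. Mouse oocytes lack centrioles and build the meiotic spindle from many microtubule organising centres, and motors on microtubules carry their mitochondria.

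Sequences are shown first for members with a closely related copy or with opposite behaviour within a family. Tubg1 and Tubg2 (both on chromosome 11, plus strand, 29488 bp apart) encode gamma-tubulins and matched at 93.3% of 1353 coding bases. Tuba3a (chromosome 6, minus strand) and Tuba3b (chromosome 6, plus strand) matched at 97% of 1350 coding bases. The windows are the 90 coding bases at which each pair differed most, in GRCm38 with GENCODE vM21 exons. Capitals mark the bases that differ, 16 in the gamma-tubulin pair and 11 in the alpha-tubulin pair. The Tubg1 window is coding bases 1135 to 1224 over 2 exons within chr11:101125341-101126097, and the Tubg2 window lies over 2 exons within chr11:101161165-101161470. The Tuba3a window is coding bases 274 to 363 in 1 exon at chr6:125282365-125282454, and the Tuba3b window is in 1 exon at chr6:145618779-145618868.
Tubg1: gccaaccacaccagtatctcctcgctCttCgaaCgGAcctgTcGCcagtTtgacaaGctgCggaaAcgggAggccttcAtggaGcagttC
Tubg2: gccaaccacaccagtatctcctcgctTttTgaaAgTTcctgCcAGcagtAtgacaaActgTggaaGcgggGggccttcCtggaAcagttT
Tuba3a: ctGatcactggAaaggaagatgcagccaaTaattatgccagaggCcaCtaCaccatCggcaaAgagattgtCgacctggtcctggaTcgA
Tuba3b: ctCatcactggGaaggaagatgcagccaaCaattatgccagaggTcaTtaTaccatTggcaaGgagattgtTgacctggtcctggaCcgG
Of the 100-base windows of GENCODE transcripts, 3.23% of those of Tubg1 and 4.23% of those of Tubg2 also occurred in the other gene. Shared windows made up 12.3% for Tuba3a and 11.8% for Tuba3b. Most 100-base stretches of both pairs were thus unique to 1 gene.

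The kinesin-8 genes Kif18a and Kif18b, which limit microtubule length at plus ends, moved in opposite directions in Mfn2-/- oocytes, and their promoters from RefSeq (GRCm38.p6) are given for that reason. Each RefSeq promoter entry runs 250 bases upstream and 50 bases downstream of the start, and the first 280 of its 300 bases are shown. Capitals mark TTTGAA and CCAAT on either strand, which are short elements known from promoters of cell cycle genes. Kif18b lies on the minus strand and its stretch is chr11:102925095-102925374. Kif18a lies on the plus strand and its stretch is chr2:109280488-109280767.
Kif18b: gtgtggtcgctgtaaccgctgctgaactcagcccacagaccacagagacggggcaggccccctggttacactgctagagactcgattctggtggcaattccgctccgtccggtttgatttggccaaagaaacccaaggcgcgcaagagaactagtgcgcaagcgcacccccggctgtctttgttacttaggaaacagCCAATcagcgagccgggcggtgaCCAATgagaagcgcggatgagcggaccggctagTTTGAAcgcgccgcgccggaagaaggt
Kif18a: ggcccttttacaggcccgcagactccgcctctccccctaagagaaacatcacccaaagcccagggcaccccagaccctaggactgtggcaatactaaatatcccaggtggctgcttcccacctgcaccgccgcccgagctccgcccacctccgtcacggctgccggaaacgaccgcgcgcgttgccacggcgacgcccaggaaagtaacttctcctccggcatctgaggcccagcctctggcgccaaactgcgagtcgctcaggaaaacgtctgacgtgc
The Kif18b entry held 1 TTTGAA and 2 CCAAT, and the Kif18a entry held neither. The entry of Tuba3b, which rose with Mfn2 loss over both backgrounds, also held 1 TTTGAA and 2 CCAAT. That of Tubb3, which rose too, held 1 CCAAT and no TTTGAA. That of Tuba3a, which was not called by edgeR with all pools, held 3 CCAAT and no TTTGAA. In all 32851 promoter entries, 17.9% held TTTGAA and 37.4% held CCAAT on either strand. Among the 56 entries matched to 51 of the 63 members, 25% held TTTGAA and 42.9% held CCAAT. The matches describe these letters in these windows only.

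Library totals ran from 11575357 to 16024893 counts. Levels are CPM, counts scaled to library size by TMM, and 3 counts correspond to 0.187 to 0.259 CPM. The members made up 1.08 to 1.16% of the counts in Mfn1&2-/- pools, 0.944 to 1.00% in Mfn1-/- pools, 0.995 to 1.02% in Mfn2-/- pools and 0.993 to 1.08% in WT pools. Mfn1 lay at 17.7 to 18.9 CPM in Mfn1-/- and 14.8 to 26.4 CPM in Mfn1&2-/- pools, against 264 to 297 CPM in WT pools. Mfn2 lay at 9.19 to 13.5 CPM in Mfn2-/- and 9.99 to 12.3 CPM in Mfn1&2-/- pools, against 68.4 to 87.2 CPM in WT pools. All 15 oocyte markers were measured. They summed to 16874 to 18908 CPM in Mfn2-/-, 15172 to 16814 CPM in Mfn1&2-/- and 14402 to 16421 CPM in Mfn1-/- pools, against 13243 to 16383 CPM in WT pools. The Mfn2-/- sums lay above all others. By edgeR 5 of 15 oocyte markers were higher in Mfn2-/- against WT (median 0.30), and 1 was higher and 5 lower in Mfn1&2-/- against Mfn2-/- (median -0.27). Of 15 granulosa markers, 11 were measured. They summed to 442 to 542 CPM in 11 pools and to 893 CPM in WT replicate 3, where Inha, Inhba and Inhbb lay at 77.9, 71.3 and 155 CPM. Serpine2 alone held 276 to 371 CPM over all pools, and Inhbb ran from 0.226 to 17.0 CPM in the pools other than WT replicate 3. Gata4 went the other way, with 29.5 CPM in WT replicate 3, against 42.8 and 50.8 CPM in WT replicates 1 and 2. Called lower in Mfn2-/- against WT were 4 granulosa markers, Inha, Inhba, Inhbb and Hsd17b1, and 2 were lower in Mfn1&2-/- against WT, Inha and Kitl. Kitl lay at 3.35 to 4.92 CPM in Mfn1&2-/- pools, against 10.9 to 14.7 CPM in WT pools. The endothelial receptor Tie1 lay at 0 to 0.083 CPM in Mfn2-/- and 0 to 0.197 CPM in Mfn1&2-/- pools, against 5.72 to 10.3 CPM in Mfn1-/- and 4.63 to 12.6 CPM in WT pools. It was 1 of 4 measured among 9 endothelium, blood and immune markers. Pecam1 went the other way, called higher by edgeR in Mfn1&2-/- against WT (log2 fold change 0.46, adjusted p = 0.0171). The 4 summed to 166 to 192 CPM in Mfn1&2-/-, 147 to 154 CPM in Mfn2-/-, 132 to 156 CPM in Mfn1-/- and 150 to 154 CPM in WT pools. The part of these shifts in the members' changes was not tested. Calls of members that involve WT are therefore also given without WT replicate 3 where that changes them. Calls of markers and of genes in the wider lists are given with all pools only. In pools of whole oocytes, fewer cells of a type and less RNA per cell cannot be told apart.

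Levels between genes were compared as CPM per kilobase of exon. Beta-tubulins stood highest, and most gamma-tubulin complex proteins stood low. The median member had 11.5 CPM per kb, against 5.66 CPM per kb for all located genes, and 47 of 63 members were above that second value. Tubb4b, a broadly expressed beta-tubulin, led with a mean of 619 CPM per kb over 12 pools. It was followed by the beta-tubulins Tubb2a with 267 and Tubb2b with 157 CPM per kb. The lowest beta-tubulin, Tubb5, still reached 52.4 CPM per kb. Among kinesins, Kif23, the kinesin of the central spindle in dividing cells, had 141 CPM per kb and the chromosome kinesin Kif4 had 128 CPM per kb. Kif14, which acts in cytokinesis, followed with 93.1, Kif17 with 81.7 and the microtubule depolymerase Kif2c with 77.2 CPM per kb. The ranges of Kif23 and Kif4 over pools overlapped, where Kif23 ran from 108 to 175 and Kif4 from 118 to 140.0 CPM per kb.

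The gamma-tubulins were unequal, with 129.9 CPM per kb for Tubg2 and 27.9 CPM per kb for Tubg1, and their ranges over pools did not overlap. Tuba3a, best known from testis, led the alpha-tubulins with 68.3 CPM per kb, ahead of Tuba4a with 33.6 CPM per kb, and Tuba1a was the lowest of them with 2.04 CPM per kb. The dynein intermediate chain Dync1i2 had 41.3 CPM per kb, while its relative Dync1i1, known from neurons, had 1.05 CPM per kb. Dynactin subunits ran from 2.52 CPM per kb for Dctn6, a subunit at the pointed end of dynactin, to 11.5 CPM per kb for Dctn1, the subunit that binds microtubules. The gamma-tubulin complex proteins ran up to 16.9 CPM per kb, for Tubgcp2. The lowest levels of all members belonged to Tubgcp6 with 0.280 and Kif3c with 0.296 CPM per kb. Family names with no row in the table, which lists genes above 1 CPM in at least 3 libraries, include Kif5a, Kif1a, Kif7, Kif2b, Tuba8, Tubb1 and Tubb4a, and these were not analysed here.

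**Figure D1:**
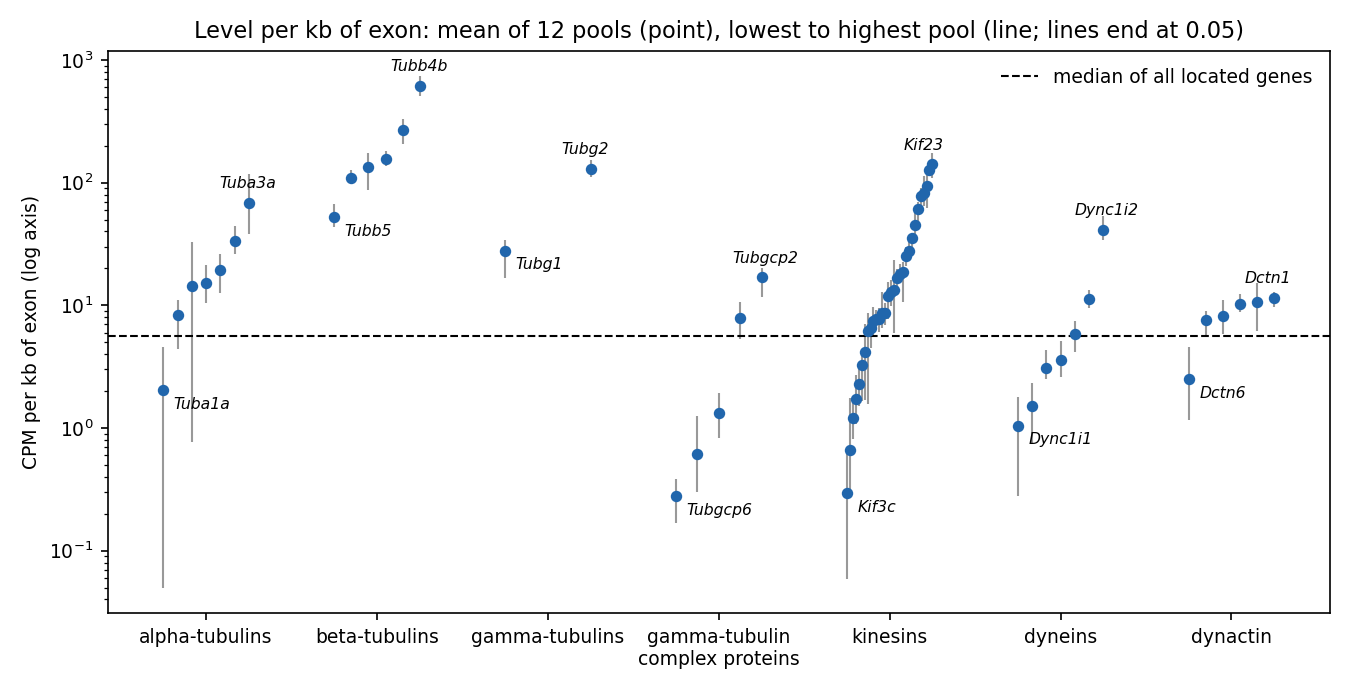
Mean CPM per kb of exon over 12 pools for the 63 members by class (points, log axis), with the lowest and highest pool (lines, drawn down to 0.05 at most) and the median of all located genes, 5.66 CPM per kb (dashed). The 6 beta-tubulins all sit above 50 CPM per kb, and the highest and lowest member of each class are named.

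Agreement between pools of a group varied widely among the members. The mean coefficient of variation within groups had a median of 12%, lay below 10% for 23 members and above 30% for 7 members. Tubb6, a beta-tubulin, was the steadiest at 3.99%. The 7 least steady members were Tuba1a at 71.4%, Tuba3b at 47.9%, Dync1i1 at 42.8%, Kif3c at 40.7%, Tubgcp4 at 40.0%, Kif13a at 37.2% and Tuba3a at 31.7%. Tuba1a, Tuba1b and Tuba1c shared 65.1%, 62.1% and 46.0% of their 100-base windows with other genes, so their separate levels are uncertain.

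Loss of Mfn2 alone changed a few members by more than the spread between pools. Counts were fitted with edgeR's quasi-likelihood test over all genes, and a gene was called changed at an adjusted p below 0.05. In Mfn2-/- against WT oocytes 7 of 63 members were called, 4 higher and 3 lower, which is 11.1% of the members. Of all genes, 11.4% were called, 4.52% higher and 6.87% lower, so the members' share stood near the background. The 3 pools of each group did not overlap for 15 members (23.8%), against 32% of all genes. The median log2 fold change was -0.03 over the members (0.01 when scaled by library size alone) and 0.01 over all genes. The 7 members are Kif18b, Tubg1 and Kif21a, which fell, and Tubb3, Kif18a, Tuba4a and Kif26b, which rose. In the same comparison 5 of 15 oocyte markers were called higher and 4 of 11 granulosa markers lower.

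In Mfn1&2-/- against WT oocytes 3 members were called, 2 higher and 1 lower (4.76%), against 4.21% of all genes, with 2.1% higher and 2.11% lower. They are Kif17 and Tubb3, which rose, and Kif18b, which fell. Groups did not overlap for 18 members (28.6%), against 22.1% of all genes. Without Mfn1-/- replicate 1 in the fit 5 members were called, the other 2 being Kif26b (log2 fold change 0.62, adjusted p = 0.0462) and Tuba3b (1.58, adjusted p = 0.0255). Loss of Mfn2 in oocytes that already lacked Mfn1 (Mfn1&2-/- against Mfn1-/-) gave 5 members, 4 higher and 1 lower (7.94%), against 5.36% of all genes, with 2.76% higher and 2.6% lower. Kif18b fell, and Kif14, Tuba3b, Tubb3 and Tubb6 rose. Groups did not overlap for 27 members (42.9%), against 26% of all genes, and the median log2 fold change was 0.15 over the members and 0.01 over all genes.

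Loss of Mfn1 alone (Mfn1-/- against WT) gave 0 of 63 members by edgeR, against 0.228% of all genes, with 0.0703% higher and 0.158% lower. At an unadjusted p below 0.05 stood 10 members (15.9%), against 12.8% of all genes, and groups did not overlap for 13 members (20.6%), against 18.1% of all genes. DESeq2 called 1 member, Kif2c, lower. Kif2c had 276, 302 and 294 CPM in Mfn1-/- pools, against 364, 382 and 391 CPM in WT pools. These groups did not overlap, with a log2 fold change of -0.38 ± 0.09 and an adjusted p of 0.0791 by edgeR. Without Mfn1-/- replicate 3, edgeR called 1 member, Tuba3b, lower (log2 fold change -2.27, adjusted p = 0.0483).

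**Figure D2:**
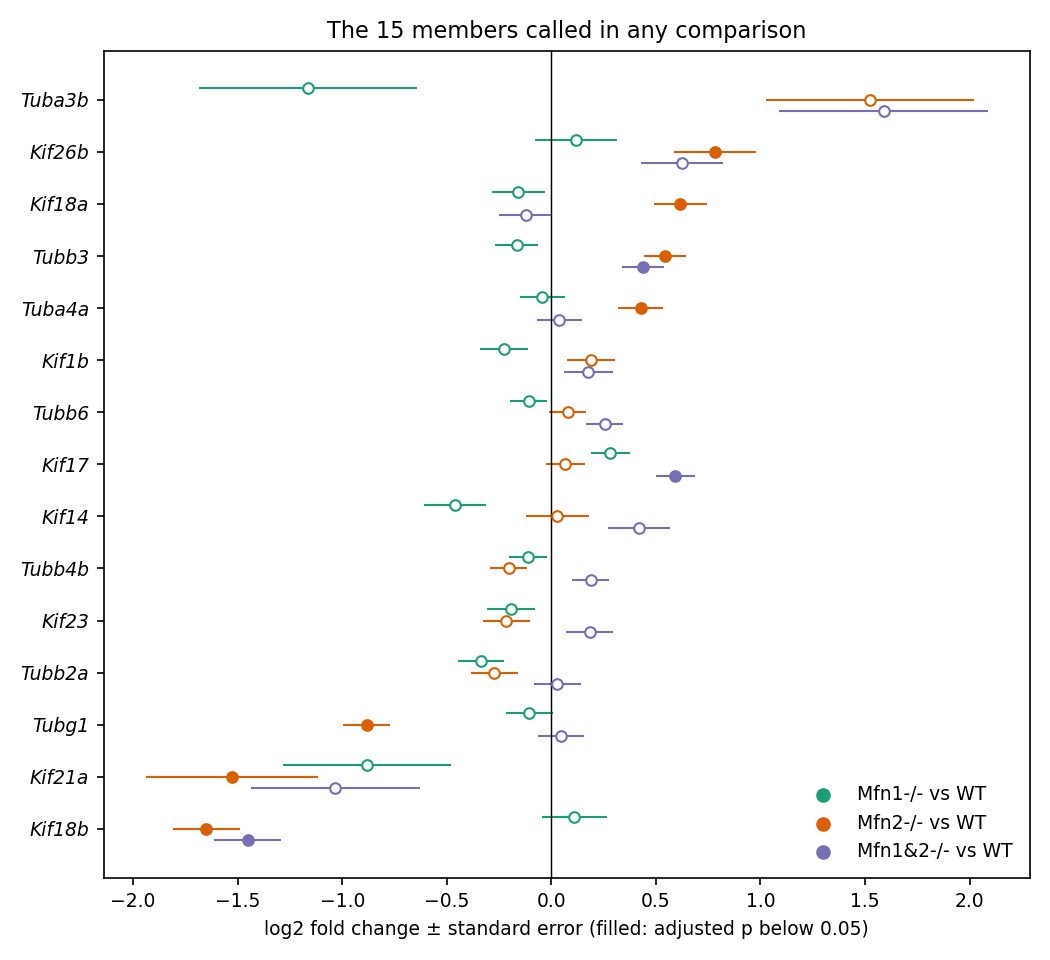
Log2 fold change ± standard error against WT for the 15 members called in any of the 7 comparisons, with Mfn1-/- (green), Mfn2-/- (orange) and Mfn1&2-/- (purple) against WT; filled points have an adjusted p below 0.05. Kif18b sits near -1.5 in both groups without Mfn2 and near 0 in Mfn1-/-, while Tubg1 (lower) and Kif18a (higher) are called in Mfn2-/- and lie near 0 in Mfn1&2-/-.

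Kif18b had the largest fall among the members called against WT. It had 21.5, 23.7 and 21.1 CPM in Mfn2-/- pools and 26.3, 23.8 and 25.8 CPM in Mfn1&2-/- pools, against 74.5, 76.6 and 73.0 CPM in Mfn1-/- pools and 51.1, 83.2 and 73.6 CPM in WT pools. Every pool without Mfn2 lay below every pool with it. The log2 fold change against WT was -1.65 ± 0.16 in Mfn2-/- (adjusted p = 1.64e-05) and -1.45 ± 0.16 in Mfn1&2-/- (adjusted p = 6.72e-05). Mfn1&2-/- against Mfn1-/-, which shares no pool with Mfn2-/- against WT, gave -1.56 ± 0.16 (adjusted p = 2.90e-05). The difference between these 2 effects of Mfn2 loss was 0.09 ± 0.22 (adjusted p = 0.855). Each of the Kif18b calls held when any of the 12 libraries was left out. Kif18b protein is known in mitotic cells for shortening astral microtubules together with the end-binding protein EB1.

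Kif18a, known in mitosis for damping chromosome movements on the spindle, rose in Mfn2-/- oocytes and was lower in the double mutant than in Mfn2-/-. It had 126, 109 and 122 CPM in Mfn2-/-, 80.6, 68.1 and 65.6 CPM in Mfn1&2-/- and 64.4, 79.3 and 64.9 CPM in Mfn1-/- pools, against 77.1, 70.3 and 85.8 CPM in WT pools. The Mfn2-/- pools all lay above the other 9. The log2 fold change was 0.62 ± 0.13 in Mfn2-/- against WT (adjusted p = 0.00584) and -0.74 ± 0.13 in Mfn1&2-/- against Mfn2-/- (adjusted p = 0.00235), and both calls held without any 1 library. The test of whether the effect of Mfn2 loss differed with and without Mfn1 gave -0.58 ± 0.18 (adjusted p = 0.0768), which missed the threshold, while DESeq2 gave an adjusted p of 0.0388 and scaling by library size alone gave 0.0323. Exons of Kif18a overlapped those of Mettl15 on the other strand by 0.112%, and Kif18b shared no 100-base window with another gene.

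**Figure D3:**
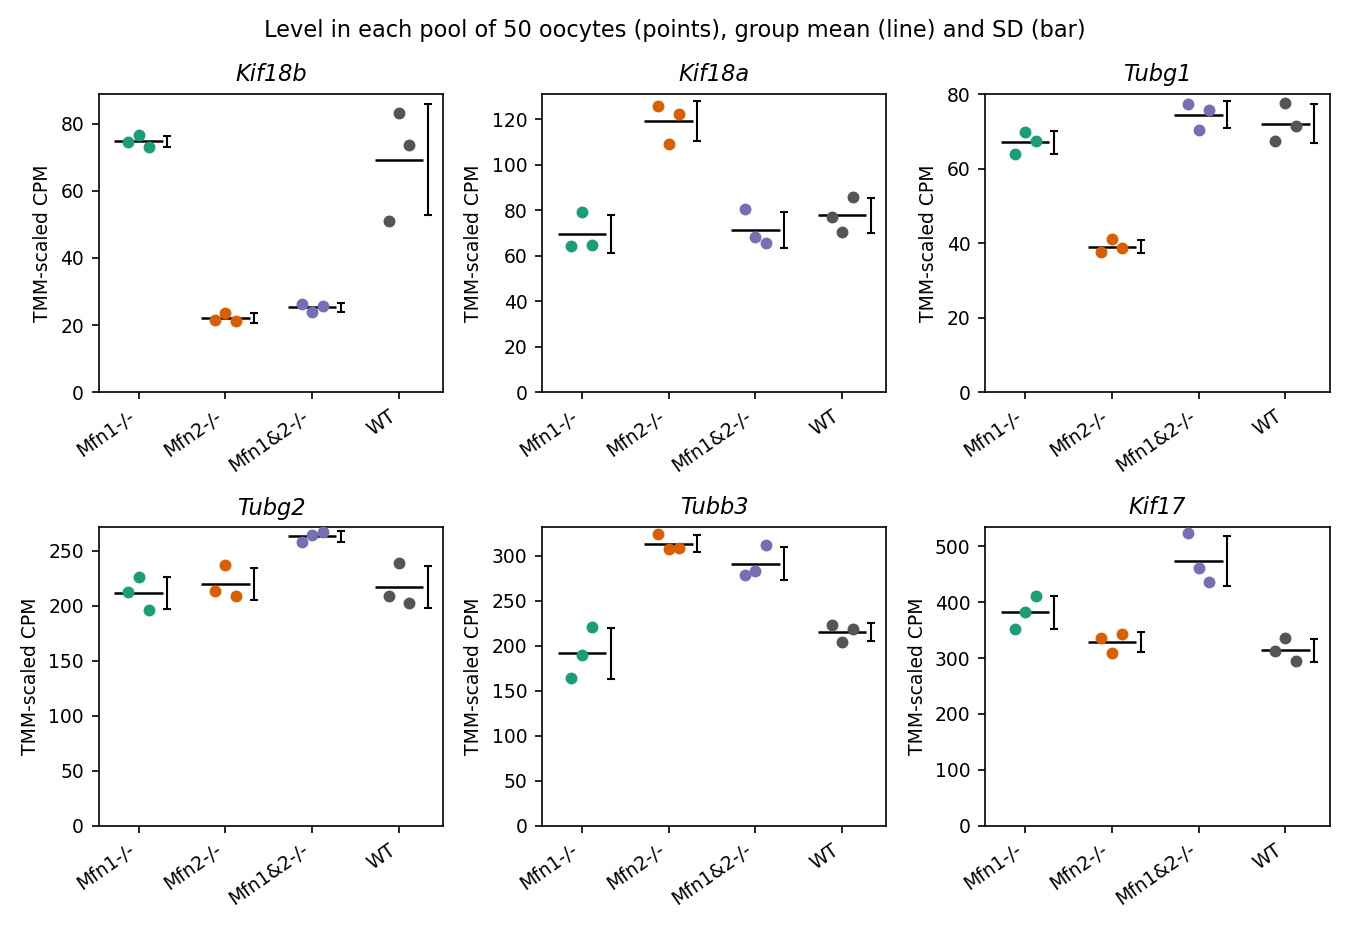
TMM-scaled CPM of 6 members in each pool (points) with the group mean (line) and SD (bar), n = 3 pools, groups ordered Mfn1-/-, Mfn2-/-, Mfn1&2-/- and WT. Kif18b is low in the 6 pools without Mfn2, Tubb3 is high in them, Tubg1 is low and Kif18a high in the 3 Mfn2-/- pools, Kif17 is high in the 3 Mfn1&2-/- pools, and Tubg2 in Mfn2-/- overlaps WT.

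Tubg1, which encodes the gamma-tubulin that mouse embryos require, fell in Mfn2-/- oocytes and was higher in the double mutant than in Mfn2-/-. Pools had 37.6, 41.1 and 38.6 CPM in Mfn2-/-, 77.4, 70.5 and 75.6 CPM in Mfn1&2-/- and 63.8, 69.7 and 67.5 CPM in Mfn1-/-, against 67.3, 77.5 and 71.5 CPM in WT. The 3 Mfn2-/- pools lay below all 9 others, at 54.2% of the WT mean. The log2 fold change was -0.88 ± 0.11 against WT (adjusted p = 0.000179), and 0.93 ± 0.11 for Mfn1&2-/- against Mfn2-/- (adjusted p = 0.000175). The effect of Mfn2 loss without Mfn1 differed from that with Mfn1 by 1.04 ± 0.16 (adjusted p = 0.00285), and this call held with any 1 library left out.

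Its neighbour Tubg2, which is dispensable in mice, was not called by edgeR. Tubg2 had 214, 237 and 209 CPM in Mfn2-/- pools, against 209, 239 and 203 CPM in WT pools, and the groups overlapped. In Mfn1&2-/- pools it had 258, 264 and 268 CPM, above all 9 other pools, with a log2 fold change of 0.31 ± 0.09 against Mfn1-/- (adjusted p = 0.055 by edgeR and 0.0246 by DESeq2) and 0.28 ± 0.09 against WT (adjusted p = 0.102). The 2 genes summed to 247 to 278 CPM in Mfn2-/- pools and 335 to 343 CPM in Mfn1&2-/- pools, against 274 to 316 CPM in WT pools. None of the 5 gamma-tubulin complex proteins, which hold gamma-tubulin in its ring, was called by edgeR in any of the 7 comparisons, in which at most 12.4% of all genes were called, so 0 of 5 is not particular to them. At an unadjusted p below 0.05, 1 of the 5 passed in Mfn1&2-/- against WT and 1 in Mfn1&2-/- against Mfn2-/-, and DESeq2 called 0 in all comparisons. Without Mfn1&2-/- replicate 3, edgeR called Tubgcp2 lower in Mfn1&2-/- against Mfn2-/- (log2 fold change -0.53, adjusted p = 0.0458). The best measured of them, Tubgcp2, had 65.6 to 80.8 CPM in Mfn2-/-, 46.7 to 67.7 CPM in Mfn1&2-/-, 64.7 to 74.0 CPM in Mfn1-/- and 60.5 to 75.2 CPM in WT pools.

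Among beta-tubulins, Tubb3, known as the neuronal class III beta-tubulin, rose with Mfn2 loss on both backgrounds. It had 324, 307 and 309 CPM in Mfn2-/- and 279, 282 and 312 CPM in Mfn1&2-/- pools, against 164, 189.6 and 221 CPM in Mfn1-/- and 223, 204 and 218 CPM in WT pools. The 6 pools without Mfn2 lay above the 6 with it. Its log2 fold change was 0.54 ± 0.10 in Mfn2-/- against WT (adjusted p = 0.00341) and 0.60 ± 0.10 in Mfn1&2-/- against Mfn1-/- (adjusted p = 0.00266). Against WT the double mutant stood at 0.44 ± 0.10 (adjusted p = 0.0223), a call that was lost without Mfn1&2-/- replicate 2 (adjusted p = 0.0554), Mfn1&2-/- replicate 3 (0.099), WT replicate 2 (0.0864) or WT replicate 3 (0.0537). Tubb3 shared no 100-base window with another gene.

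The 6 beta-tubulins were also compared as a class. All 6 had a positive log2 fold change in Mfn1&2-/- against Mfn1-/-, with 2 called higher and a median of 0.35. Of all genes 51.5% were positive there, 2.76% were called higher and the median was 0.01. In Mfn1-/- against WT all 6 were negative, with none called, 1 at an unadjusted p below 0.05 and a median of -0.14, while 48.7% of all genes were positive, 12.8% had such a p and the median was -0.01. Of all 63 members, 45 were positive in Mfn1&2-/- against Mfn1-/- (median 0.15) and 21 in Mfn1-/- against WT (median -0.11). Of the 30 kinesins 20 and 9 were positive, with medians of 0.23 and -0.16. The lean was thus not particular to beta-tubulins. Both comparisons use the Mfn1-/- pools. The beta-tubulin signs were the same under RLE and library size scaling, where the least negative value in Mfn1-/- against WT was -0.0032. Summed over the 6 genes, pools held 2949 to 3263 CPM in Mfn1&2-/-, 2512 to 2791 CPM in Mfn2-/- and 2355 to 2793 CPM in Mfn1-/-, against 2729 to 2911 CPM in WT. Only the Mfn1&2-/- sums lay wholly above those of WT.

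Tubb6, a beta-tubulin found in many tissues, had 306, 307 and 307 CPM in Mfn1&2-/- pools, against 239, 238 and 237 CPM in Mfn1-/- pools, and 309.7, 248 and 255 CPM in Mfn2-/- pools, against 259, 248 and 263 CPM in WT pools. The double mutant pools agreed closely and lay above Mfn1-/- and WT. Its log2 fold change of 0.36 ± 0.09 against Mfn1-/- (adjusted p = 0.0261) was lost without any 1 of the Mfn1-/- or Mfn1&2-/- pools or Mfn2-/- replicate 3, with adjusted p of 0.0535 to 0.0986. Tubb4b had 1433, 1523 and 1538 CPM in Mfn1&2-/- pools, against 1179, 1056 and 1192 CPM in Mfn2-/- pools, and 1137, 1197 and 1317 CPM in Mfn1-/- pools, against 1186, 1335 and 1425 CPM in WT pools. The double mutant pools lay above all 9 others. Tubb4b stood at 0.39 ± 0.09 in Mfn1&2-/- against Mfn2-/- (adjusted p = 0.0121), and the call was lost without Mfn2-/- replicate 2 (adjusted p = 0.0618). Tubb4b shared 21.0% of its 100-base windows with other genes, mostly its pseudogene Tubb4b-ps1.

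Tubb2a had 414, 533 and 500.3 CPM in Mfn1&2-/- pools, 415, 396 and 363 CPM in Mfn2-/- pools and 356, 332 and 435 CPM in Mfn1-/- pools, against 474, 488 and 456 CPM in WT pools. Both single mutants lay below WT in every pool, and the double mutant overlapped WT. By edgeR no pairwise comparison with all pools called it, DESeq2 called it higher in Mfn1&2-/- against Mfn1-/- (0.36, adjusted p = 0.0327), and edgeR called the interaction, with a log2 value of 0.64 ± 0.16 (adjusted p = 0.0377). Tubb2a and Tubb2b matched at 96.5% of coding bases, and 36.9% and 26% of their 100-base windows were shared, so the split of reads between them is uncertain.

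Alpha-tubulins were called in 2 members. Tuba4a had 148, 164 and 149.8 CPM in Mfn2-/- pools, against 96.5, 123.3 and 124 CPM in WT pools, and 118, 116 and 120.0 CPM in Mfn1&2-/- pools, against 115, 104 and 114 CPM in Mfn1-/- pools. The Mfn2-/- pools lay above the other 9. Against WT the log2 fold change was 0.43 ± 0.11 (adjusted p = 0.0182), lost without Mfn2-/- replicate 2 (adjusted p = 0.0773) or WT replicate 1 (0.0646). Mfn1&2-/- against Mfn2-/- gave -0.39 ± 0.11 (adjusted p = 0.0303), lost without any 1 of the 6 pools compared, with adjusted p of 0.0539 to 0.116. On the opposite strand, Stk16 overlapped 37.3% of the exon bases of Tuba4a. The strand setting of the counting is not given, and Stk16 stood at 0.333 to 3.24 CPM in Mfn2-/- pools, against 1.18 to 2.67 CPM in WT pools, with a log2 fold change of -0.13 ± 0.77 (adjusted p = 0.94).

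Tuba3b, an alpha-tubulin best known from testis, had a mean of 14.2 CPM per kb over 12 pools and was scattered. Pools held 58.0, 23.8 and 42.8 CPM in Mfn1&2-/- and 29.7, 43.2 and 46.0 CPM in Mfn2-/-, against 1.35, 4.26 and 13.1 CPM in Mfn1-/- and 12.7, 18.4 and 10.3 CPM in WT. The 6 pools without Mfn2 all lay above the 6 with it, and the spread within groups was wide. The log2 fold change of Mfn1&2-/- against Mfn1-/- was 2.75 ± 0.53 (adjusted p = 0.00598), and it was 3.85 without Mfn1-/- replicate 3, the highest of the Mfn1-/- pools. Mfn2-/- against WT gave 1.52 ± 0.50 (adjusted p = 0.0599) and Mfn1&2-/- against WT gave 1.59 ± 0.50 (adjusted p = 0.0867), both short of the threshold. The first gave adjusted p of 0.0171 and 0.0154 without Mfn1-/- replicate 1 or 3, and the second gave 0.0255 and 0.0223. Fitted on the compared groups alone, both were called, with adjusted p of 0.00371 in Mfn2-/- and 0.0231 in Mfn1&2-/-. Over both backgrounds the effect of Mfn2 loss was 2.14 ± 0.36 (adjusted p = 0.00129).

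Its near-copy Tuba3a was not called by edgeR in any comparison with all pools. It was called lower in Mfn1&2-/- against WT without Mfn1&2-/- replicate 2 (log2 fold change -1.24, adjusted p = 0.0356). It had 59.0, 108 and 57.8 CPM in Mfn1&2-/- and 114, 65.5 and 132 CPM in Mfn2-/- pools, against 119, 100.3 and 66.0 CPM in Mfn1-/- and 179, 129 and 107 CPM in WT pools. Every pair of groups overlapped. Tuba3b made up 18.0 to 49.6% of the sum of both genes in Mfn1&2-/- and 20.6 to 39.7% in Mfn2-/- pools, against 1.12 to 16.5% in Mfn1-/- and 6.63 to 12.5% in WT pools. The ranges of pools with and without Mfn2 did not overlap, and the treatment of reads that match both copies is not given.

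**Figure D4:**
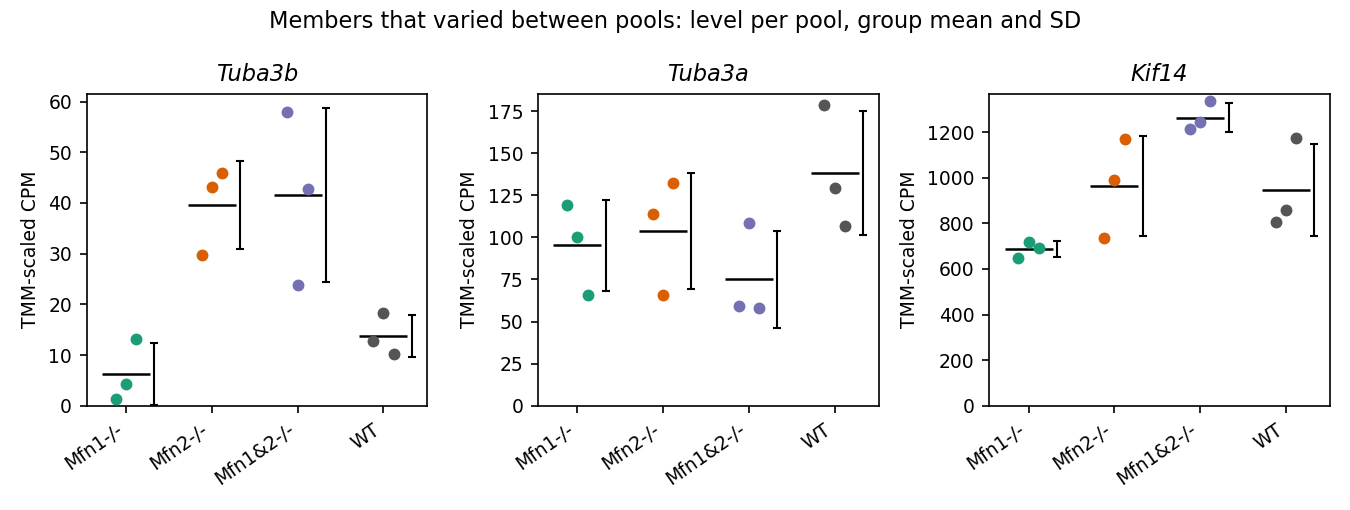
TMM-scaled CPM of Tuba3b, Tuba3a and Kif14 in each pool (points) with the group mean (line) and SD (bar), n = 3 pools, groups ordered Mfn1-/-, Mfn2-/-, Mfn1&2-/- and WT. Tuba3b reaches 23.8 to 58.0 CPM in the 6 pools without Mfn2 and 1.35 to 18.4 CPM in the other 6; Kif14 spreads widely in Mfn2-/- and WT.

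Kif14 and Kif23, kinesins of the last step of cell division, were higher in the double mutant than in a single mutant. Kif14 had 1213, 1243 and 1335 CPM in Mfn1&2-/- pools, against 648, 718 and 694 CPM in Mfn1-/- pools, and 735, 988 and 1169 CPM in Mfn2-/- pools, against 803, 856 and 1175 CPM in WT pools. Double mutant pools lay above all 9 others and Mfn1-/- pools below them. Mfn1&2-/- against Mfn1-/- gave 0.88 ± 0.15 (adjusted p = 0.003), a call kept without any 1 library. Against WT the double mutant stood at 0.42 ± 0.15 (adjusted p = 0.133), and at 0.61 (adjusted p = 0.0347) without WT replicate 3. The interaction was 0.85 ± 0.21 (adjusted p = 0.0393).

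Kif23, part of the centralspindlin complex, had 1275, 1386 and 1261 CPM in Mfn1&2-/- pools, against 973, 956 and 1046 CPM in Mfn2-/- pools, and 856, 1139 and 1025 CPM in Mfn1-/- pools, against 999, 1119.9 and 1334 CPM in WT pools. The double mutant lay above both single mutants and overlapped WT. Mfn1&2-/- against Mfn2-/- gave 0.40 ± 0.11 (adjusted p = 0.0354), lost without any 1 of the 6 pools compared, with adjusted p of 0.0557 to 0.117. The summed kinesins held 6524 to 6655 CPM in Mfn1&2-/- pools, 5495 to 5829 CPM in Mfn2-/- pools and 4967 to 5625 CPM in Mfn1-/- pools, against 5516 to 6478 CPM in WT pools. Kif11, which separates the spindle poles, was not called with all pools and had 177 to 193 CPM in Mfn2-/-, 156 to 185 CPM in Mfn1&2-/-, 199.6 to 213 CPM in Mfn1-/- and 163 to 222 CPM in WT pools. Over both backgrounds of Mfn2 loss it was called lower without WT replicate 2 (-0.26, adjusted p = 0.0259).

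Among kinesins of cargo transport, Kif17 was called higher in the double mutant. Kif17, a kinesin-2 that carries receptors in neurons, had 523, 461 and 437 CPM in Mfn1&2-/- pools, 336, 308 and 343 CPM in Mfn2-/- pools and 352, 383 and 410.2 CPM in Mfn1-/- pools, against 312, 335 and 295 CPM in WT pools. The double mutant pools lay above all 9 others. The log2 fold change was 0.59 ± 0.09 against WT (adjusted p = 0.00186) and 0.53 ± 0.09 against Mfn2-/- (adjusted p = 0.00311), and both calls held without any 1 library. Kif17 lies 9.572 Mb from Mfn2 on chromosome 4, and whether linked sequence takes part was not tested.

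Kif1b, which moves mitochondria and synaptic vesicle precursors in neurons, had 169, 168 and 169 CPM in Mfn2-/- and 184, 148 and 171 CPM in Mfn1&2-/- pools, against 134, 122 and 124 CPM in Mfn1-/- and 131, 137 and 176 CPM in WT pools. WT replicate 3 overlapped the pools without Mfn2. Over both backgrounds its effect was 0.30 ± 0.08 (adjusted p = 0.0262), and the call was lost without 8 of the 12 libraries in turn, with adjusted p of 0.0518 to 0.0645. It remained without Mfn1-/- replicate 1, Mfn2-/- replicate 2, Mfn1&2-/- replicate 2 or WT replicate 3. Kif1b lies 1.272 Mb from Mfn2, and the part of linked sequence was not tested. Kif5b and Kif5c, the kinesin-1 heavy chains that pull mitochondria through Miro and its adaptors, were not called. Kif5b had 78.5 to 105 CPM in Mfn2-/-, 99.2 to 124 CPM in Mfn1&2-/-, 61.5 to 101 CPM in Mfn1-/- and 81.0 to 108 CPM in WT pools. Kif5c had 86.8 to 109.0 CPM in Mfn1-/- pools, against 120.8 to 139.6 CPM in WT pools. It had 123.1 to 132.7 CPM in Mfn1&2-/- and 103.5 to 142.4 CPM in Mfn2-/- pools. Its Mfn1-/- pools lay below all WT and Mfn1&2-/- pools and overlapped Mfn2-/-. The log2 fold change of Kif5c in Mfn1-/- against WT was -0.34 ± 0.12 (adjusted p = 0.263 by edgeR).

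Kif26b, an atypical kinesin of developing kidney, had 46.6, 47.7 and 35.3 CPM in Mfn2-/- and 34.0, 43.5 and 38.4 CPM in Mfn1&2-/- pools, against 36.2, 23.4 and 22.1 CPM in Mfn1-/- and 24.3, 27.5 and 23.5 CPM in WT pools. Pools without Mfn2 lay above WT, and Mfn1-/- replicate 1 overlapped them. Mfn2-/- against WT gave 0.78 ± 0.20 (adjusted p = 0.0184), lost without Mfn2-/- replicate 1 (adjusted p = 0.0612), Mfn2-/- replicate 2 (0.0734) or WT replicate 3 (0.0643). Kif21a, which slows microtubule growth at the cell cortex, was near the lower end of the table. It had 2.06, 2.33 and 3.08 CPM in Mfn2-/- and 4.21, 3.55 and 2.80 CPM in Mfn1&2-/- pools, against 3.53, 3.45 and 4.75 CPM in Mfn1-/- and 4.87, 5.31 and 11.4 CPM in WT pools. WT replicate 3, the pool with the highest granulosa marker sum, was also the highest for Kif21a. Its fall of -1.53 ± 0.41 in Mfn2-/- against WT (adjusted p = 0.0256) was lost without WT replicate 3 (adjusted p = 0.16), Mfn2-/- replicate 1 (0.0875) or Mfn2-/- replicate 2 (0.0861). The part of granulosa cells in it was not tested.

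Kif13a, a kinesin-3 that carries endosomal cargo, turned on 1 pool. It had 12.7, 20.8 and 65.2 CPM in Mfn2-/-, 63.6, 45.6 and 70.3 CPM in Mfn1&2-/- and 69.5, 67.3 and 50.5 CPM in Mfn1-/- pools, against 50.7, 49.7 and 31.2 CPM in WT pools. Mfn2-/- replicate 3 stood apart from the other 2 pools of its group. It was not called with all pools (-0.41 ± 0.41, adjusted p = 0.573) and was called lower without that pool (log2 fold change -1.40, adjusted p = 0.0077). This gene was chosen for mention after its values were seen.

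Of the minus-end motor, edgeR called 0 of 7 dyneins and 0 of 6 dynactin subunits in each of the 7 comparisons, in which 0.228 to 12.4% of all genes were called. With so few members, a count of 0 at these shares says nothing particular about the class. At an unadjusted p below 0.05, 1 dynein and 0 dynactin subunits passed in Mfn1-/- against WT (12.8% of all genes), and 1 and 1 passed in Mfn2-/- against WT (26% of all genes) and in Mfn1&2-/- against WT (18.6% of all genes). In Mfn1&2-/- against Mfn1-/- 0 dyneins and 2 dynactin subunits passed (20.7% of all genes), and in Mfn1&2-/- against Mfn2-/- 1 and 2 passed (25.7% of all genes). Over both backgrounds of Mfn2 loss 0 and 0 passed (26.4% of all genes), and in the interaction 0 and 2 passed (21.1% of all genes). DESeq2 called Dync1i2 lower in Mfn2-/- against WT, Dctn4 and Dync1li2 higher in Mfn1&2-/- against Mfn2-/-, and Dctn4 in the interaction. The heavy chain Dync1h1, the motor itself, had 155 to 209 CPM in Mfn2-/- and 148 to 186 CPM in Mfn1&2-/- pools, against 185 to 198 CPM in Mfn1-/- and 159 to 179 CPM in WT pools. Dync1i2, which links the motor to dynactin, had 281 to 370.1 CPM in Mfn2-/- pools, against 354 to 439.6 CPM in WT pools, and a log2 fold change of -0.32 ± 0.11 (adjusted p = 0.0766), or -0.45 (adjusted p = 0.0253) without Mfn2-/- replicate 1. Dctn4, a dynactin subunit, stood at 0.61 ± 0.19 in Mfn1&2-/- against Mfn2-/- (adjusted p = 0.0515), with adjusted p of 0.023 without Mfn1-/- replicate 1 and 0.0487 without Mfn2-/- replicate 1. Dctn1 had 68.3 to 79.7 CPM in Mfn2-/- pools, against 62.6 to 78.2 CPM in WT pools, and the ranges overlapped.

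Loss of Mfn2 was then compared on both backgrounds, using Mfn2-/- against WT and Mfn1&2-/- against Mfn1-/-, which share no pool. Kif18b and Tubb3 were called in both. Of 63 members 36 (57.1%) had the same sign in both, against 53.5% of all genes. Pearson's r over the members was 0.53 and Spearman's rho 0.30, against 0.43 and 0.15 over all 11385 genes. These values are across genes of 1 fit and carry no test. In the fit of Mfn2 loss over both backgrounds 10 members were called (15.9%), 8 higher and 2 lower, against 12.4% of all genes, with 6.2% higher and 6.17% lower. They are Kif18b, Tubb3, Tuba3b, Tubg1, Kif26b, Kif14, Kif18a, Kif1b, Tubb6 and Tuba4a. Of these, 6 calls (Kif14, Kif26b, Tubg1, Kif18b, Tuba3b and Tubb3) held under every alternative run. The other 4 were lost with 6 to 10 of the 12 libraries left out in turn, with adjusted p of 0.0504 to 0.0914.

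**Figure D5:**
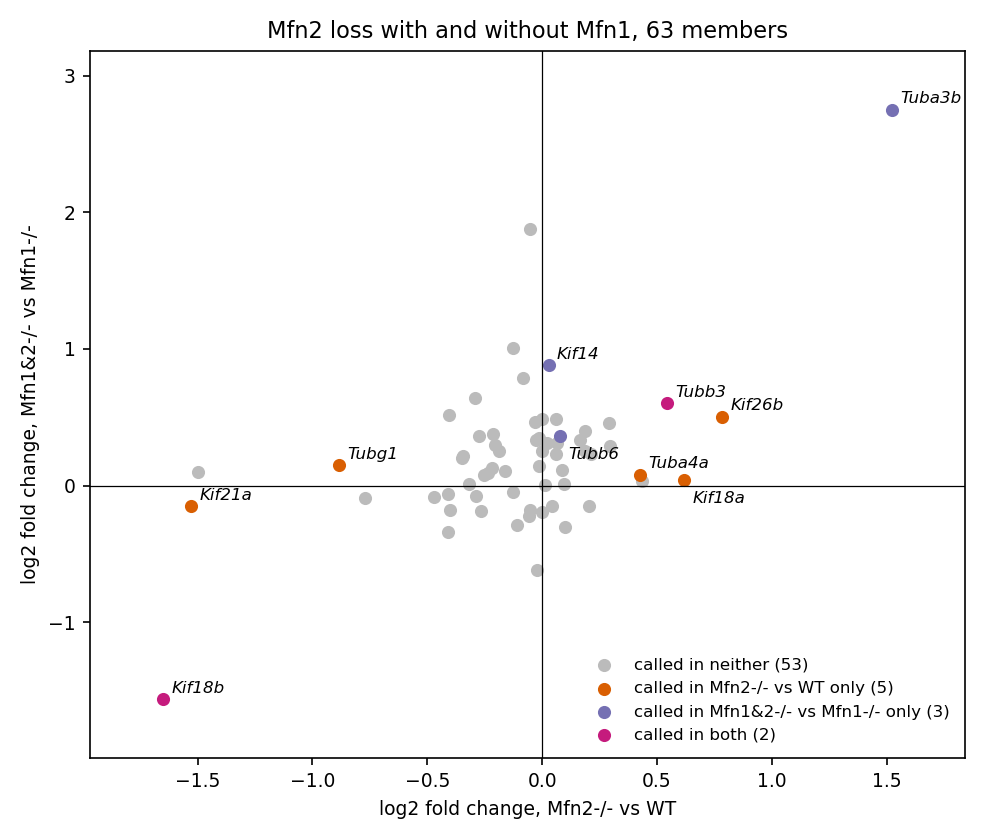
Log2 fold change of the 63 members for Mfn2 loss with Mfn1 present (Mfn2-/- vs WT, horizontal) and absent (Mfn1&2-/- vs Mfn1-/-, vertical), which share no pool; colours give the comparison in which a member was called. Kif18b lies low and Tubb3 high in both, while Tubg1 and Kif18a lie far from 0 on the horizontal axis and near 0 on the vertical.

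The effect of Mfn2 loss without Mfn1 minus that with Mfn1 was called in 5 members, all higher (7.94%), against 4.13% of all genes, with 2.92% higher and 1.2% lower. They are Tubg1, Tubb2a, Kif14, Tubb4b and Kif23. Its median was 0.26 over the members, of which 48 of 63 were above 0, against -0.01 over all genes. Scaling by library size alone moved the median of all genes by -0.11 in this comparison, and then 40 of 63 members were above 0 with a median of 0.15, and 2 members were called, Tubg1 higher and Kif18a lower. Of the 5, Tubg1 alone stayed called without any 1 library. Kif14 stayed called without Mfn2-/- replicate 3, Mfn1&2-/- replicate 1 or WT replicate 1, and otherwise had adjusted p of 0.0508 to 0.0917. Tubb2a stayed called without Mfn1-/- replicate 3, Mfn2-/- replicate 1 or Mfn1&2-/- replicate 1, and otherwise had adjusted p of 0.0526 to 0.102. Tubb4b stayed called without Mfn1-/- replicate 3, Mfn1&2-/- replicate 1 or WT replicate 1, and otherwise had adjusted p of 0.052 to 0.11. Kif23 stayed called without Mfn1-/- replicate 2 or WT replicate 1, and otherwise had adjusted p of 0.0647 to 0.119. Tuba3b was called without Mfn1-/- replicate 3 (2.33, adjusted p = 0.0417), Kif20b without Mfn1-/- replicate 2 (0.70, adjusted p = 0.0333) and Kif2c without Mfn2-/- replicate 1 (0.51, adjusted p = 0.0385).

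Some members that edgeR did not call with 1 mean per group and all pools were called when 1 library was left out. In Mfn1&2-/- against Mfn1-/- these were Tubb2a without Mfn1-/- replicate 3 (0.49, adjusted p = 0.0252) or Mfn1&2-/- replicate 1 (0.46, adjusted p = 0.0245), and Tubb5 without Mfn1&2-/- replicate 1 (0.47, adjusted p = 0.0424). Kif1b was called there without Mfn1&2-/- replicate 2 (0.49, adjusted p = 0.0434), WT replicate 1 (0.40, adjusted p = 0.0483) or WT replicate 3 (0.40, adjusted p = 0.0226). Kif23 was called there without Mfn1-/- replicate 2 (0.48, adjusted p = 0.0477) or WT replicate 3 (0.38, adjusted p = 0.0393), and Kif26b without Mfn1-/- replicate 1 (0.75, adjusted p = 0.0457). In Mfn1&2-/- against Mfn2-/-, Kif13a and Kif14 were called without Mfn2-/- replicate 3 (1.85, adjusted p = 0.00227, and 0.56, adjusted p = 0.0411), Kif3a without Mfn2-/- replicate 2 (0.65, adjusted p = 0.0248) and Tubb2a without Mfn1&2-/- replicate 1 (0.40, adjusted p = 0.0357). Falls were called in Mfn2-/- against WT as well. Kif16b fell there without Mfn2-/- replicate 1 (-0.55, adjusted p = 0.0294) or Mfn1&2-/- replicate 1 (-0.40, adjusted p = 0.0408). Kif3a fell there without Mfn2-/- replicate 2 (-0.70, adjusted p = 0.0162). Kif20b fell there without Mfn1-/- replicate 1 (-0.35, adjusted p = 0.0498) or 2 (-0.35, adjusted p = 0.0466). In Mfn1&2-/- against WT, Kif16b was lower without Mfn1&2-/- replicate 1 (-0.56, adjusted p = 0.027). Over both backgrounds Kif16b was lower without Mfn1&2-/- replicate 1 (-0.37, adjusted p = 0.0148) or Mfn2-/- replicate 1 (-0.37, adjusted p = 0.0246). Kif3a and Kif13a were lower there without Mfn2-/- replicate 2 (-0.39, adjusted p = 0.0253) and 3 (-0.74, adjusted p = 0.0164) in turn. Tubb5 was higher there without Mfn1&2-/- replicate 1 (0.32, adjusted p = 0.0217). With all pools DESeq2 called Tubb2a, Kif1b and Kif23 in Mfn1&2-/- against Mfn1-/- (adjusted p = 0.0327, 0.0224 and 0.0241). Kif17 (0.30, adjusted p = 0.0327), Tubb4b (0.29, adjusted p = 0.0311) and Kif3c (1.88, adjusted p = 0.0327) were called higher there by DESeq2 too. Kif3c lay at only 0.439 to 1.80 CPM in Mfn1-/- pools. DESeq2 also called Kif16b, Kif20b and Kif3a lower in Mfn2-/- against WT (adjusted p = 0.0462, 0.0457 and 0.034).

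Loss of Mfn1 in oocytes without Mfn2 (Mfn1&2-/- against Mfn2-/-) called 6 members (9.52%), 4 higher and 2 lower, against 10.2% of all genes, with 6.14% higher and 4.08% lower. Tubg1, Kif17, Tubb4b and Kif23 were higher, and Kif18a and Tuba4a were lower. The pools did not overlap for 17 members (27.0%), against 31.5% of all genes. Mfn1-/- against WT, which shares no pool with it, had the same sign for 23 members (36.5%), against 49.2% of all genes. The members leaned opposite ways in the 2 comparisons. Of 63 members 45 were positive in Mfn1&2-/- against Mfn2-/- and 21 in Mfn1-/- against WT, while 48.7% of all genes were positive in each. Under scaling by library size alone, 41 and 27 members were positive.

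Genes that work with these members were counted by list in Mfn2-/- against WT oocytes, where 11.4% of all genes were called and their median log2 fold change was 0.01. The list calls use all pools, and whether they hold without WT replicate 3 is not given. Of 9 measured kinesin-7 and kinesin-14 genes and kinesin partners, 1 was higher and 1 lower, with a median of -0.40. Kifc3, a minus-end kinesin, fell, with a log2 fold change of -0.94 ± 0.14 (adjusted p = 0.000663) and the spindle kinesin Kifc1 stood at 0.63 ± 0.18 (adjusted p = 0.0393). Of 14 dynein light chains and regulators, Dynll1 stood at 1.17 ± 0.20 (adjusted p = 0.00222) and Dynlrb1 stood at -1.02 ± 0.22 (adjusted p = 0.00833), with a list median of 0.02. Both are light chains of the motor. Of 15 motor adaptors 0 were higher and 3 lower, with a median of -0.08 and the spindle pole protein Numa1 at -0.42 ± 0.09 (adjusted p = 0.00611). The others were Spdl1, a dynein adaptor of kinetochores, at -0.39 ± 0.10 (adjusted p = 0.0225) and Rab11fip3, an endosomal adaptor, at -0.62 ± 0.19 (adjusted p = 0.0462).

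Of 19 microtubule nucleation partners 1 was higher and 2 were lower in Mfn2-/- against WT, with a median of -0.04. Mzt1, which binds gamma-tubulin rings, stood at 1.11 ± 0.22 (adjusted p = 0.00564), and the ring-binding protein Cdk5rap2 at -0.42 ± 0.12 (adjusted p = 0.0294). Tpx2, a spindle assembly factor, stood at -0.41 ± 0.12 (adjusted p = 0.0337). Of 19 tubulin folding genes 1 was higher and 3 lower, with a median of 0.03 and the prefoldin subunits Pfdn4 at -0.85 ± 0.15 (adjusted p = 0.00259) and Pfdn2 at -1.07 ± 0.26 (adjusted p = 0.0142). Tbca, a tubulin folding cofactor, stood at 0.65 ± 0.16 (adjusted p = 0.0192) and the chaperonin subunit Tcp1 at -0.36 ± 0.10 (adjusted p = 0.0279). Of 26 microtubule-associated and severing proteins 2 were higher and 2 lower, with a median of -0.10. Stathmin, Stmn1, which holds free tubulin, fell, with a log2 fold change of -1.62 ± 0.22 (adjusted p = 0.000347), and Katnal2, a katanin-like protein, stood at 0.58 ± 0.14 (adjusted p = 0.015). Map7d2, a microtubule-binding protein, stood at -1.85 ± 0.43 (adjusted p = 0.0122) and the plus-end protein Mapre3 at 0.93 ± 0.27 (adjusted p = 0.0396). By edgeR 0 of 6 genes of the dynactin arp filament and 0 of 17 tubulin modification genes were called, with medians of 0.18 and 0.21. In Mfn1&2-/- against WT only Kifc3 (-0.66 ± 0.14, adjusted p = 0.0126), Stmn1 (-0.86 ± 0.22, adjusted p = 0.0339) and Katnal2 (0.74 ± 0.14, adjusted p = 0.00753) of these lists were called.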

How the data were processed

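Total RNA of 12 pools was extracted with a PicoPure kit, made into stranded libraries after removal of ribosomal RNA, and read as 100 bp pairs, per the labels. FastQC 0.11.7, STAR 2.7.0a, edgeR (no version) and the mm10 genome are named in the submitters' processing notes. The authors deposited raw counts per gene, where each listed gene exceeds 1 CPM in at least 3 libraries. Which tool and annotation made the counts, with which strand setting, and how reads matching more than 1 gene were handled is stated in none of the labels. One pool's genotype label is misspelled and was placed by its description.

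After TMM scaling the counts went into the quasi-likelihood model of edgeR 4.0.16 (R 4.3.3), with 1 mean per group over 12 libraries and 8 residual degrees of freedom. The filter filterByExpr removed no gene of the 11385. P-values were adjusted by Benjamini-Hochberg over all genes, and an adjusted p below 0.05 was a call. Values after ± are SD over 3 pools for CPM, and for log2 values an approximate standard error, the absolute log2 fold change over the square root of F. The fit was tested on simulated data. All 63 members were located in GENCODE vM21 (GRCm38), whose exon lengths give CPM per kb. Members called in any comparison are given in every pool, the highest and lowest members by level are given as ranges or means, and up to 4 called genes with the smallest p are named from each wider list. Members named for a change under an alternative, or as well-known examples, were chosen after their values were seen. The members and lists were chosen with earlier results of these data known. Alternatives were DESeq2 1.42.0, RLE or library size scaling, leaving out each library, fits on the compared groups alone, a replicate block, and a filter of none or of 5 CPM in 3 libraries.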

Additional observations from a re-analysis of the deposited data

Results flagged for a closer look

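For 5 members the effect of Mfn2 loss differed between oocytes without and with Mfn1 by the interaction test over all genes (edgeR, adjusted p below 0.05). Only the Tubg1 call held under every alternative run. Those of Kif14, Tubb2a, Kif23 and Tubb4b were lost under library size scaling and with most single libraries left out. Tubg1 differed by 1.04 on the log2 scale, with 74.5 CPM in Mfn1&2-/- and 67.0 CPM in Mfn1-/- oocytes, and 39.1 CPM in Mfn2-/- and 72.1 CPM in WT oocytes. Kif14 differed by 0.85, with means of 1264 CPM in Mfn1&2-/- and 687 CPM in Mfn1-/- oocytes, and 964 CPM in Mfn2-/- and 945 CPM in WT oocytes. Tubb2a differed by 0.64, with means of 482 CPM in Mfn1&2-/- and 374 CPM in Mfn1-/- oocytes, and 391 CPM in Mfn2-/- and 473 CPM in WT oocytes. Kif23 differed by 0.59, with means of 1308 CPM in Mfn1&2-/- and 1007 CPM in Mfn1-/- oocytes, and 992 CPM in Mfn2-/- and 1151 CPM in WT oocytes. Tubb4b differed by 0.50, with means of 1498 CPM in Mfn1&2-/- and 1217 CPM in Mfn1-/- oocytes, and 1142 CPM in Mfn2-/- and 1315 CPM in WT oocytes.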

How the results depend on the processing

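Of 36 calls of members over the 7 comparisons, 20 were kept under every setting in which they were tested, and no call of a member changed direction. DESeq2 called more members: 1 in Mfn1-/- against WT (0 by edgeR), 11 in Mfn2-/- against WT (7 by edgeR), 12 in Mfn1&2-/- against Mfn1-/- (5 by edgeR) and 9 in the interaction (5 by edgeR). Scaling by library size alone gave 2 interaction calls, of which Tubg1 was 1 of the 5 above and Kif18a was new. RLE scaling, no filter and the stricter filter kept every count within 1.5 times. With 1 library left out, calls numbered 0 to 1 in Mfn1-/- against WT, 5 to 9 in Mfn2-/- against WT, 2 to 5 in Mfn1&2-/- against WT, 4 to 7 in Mfn1&2-/- against Mfn1-/-, 4 to 7 in Mfn1&2-/- against Mfn2-/-, 6 to 10 in Mfn2 loss over both backgrounds and 1 to 4 in the interaction. The low count of 6 came without Mfn1-/- replicate 3. Kif21a was removed by the filter of 5 CPM and gave no value there. The labels do not say that replicate numbers pair the samples. Same-numbered pools correlated at -0.134 to 0.179 over 18 pairs, 4 of them over 0.1. Pools of different groups and numbers correlated at -0.26 to 0.183. Of the 12 pools, 7 correlated best with their own number. With 3 pools a group these values do not settle whether pools shared animals or days. Other numbers in the pool descriptions were not examined. With the replicate number as a block 2 interaction calls were made, Kif14 and Tubg1, Kif14 was also called higher in Mfn1&2-/- against Mfn2-/- (0.41, adjusted p = 0.0433), and other counts stayed within 1.5 times. Precision is limited by 3 pools a group, and counts below the floor of 3 could not be told from 0. The causes of these changes were not tested.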
